A study of Homo sapiens with 6 samples.

Results

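Aminoacyl-tRNA synthetases are the enzymes that attach each amino acid to its tRNA, and their mRNAs were followed in RPMI 8226, an established human multiple myeloma cell line grown from malignant plasma cells. The 35 synthetase genes were chosen by symbol as members of this enzyme family, with earlier results of these data known, and for each the probe set that lists this symbol alone was used, or the brighter by its mean over 6 arrays where a gene had more than 1. All 35 were found among the 18417 genes of the array, 19 encoding cytosolic enzymes and 16 encoding mitochondrial enzymes, the latter with symbols that end in 2. Cells received 0 Gy or 6 Gy of carbon ions, a densely ionising particle beam, and total RNA was taken 1 day later; no other treatment or genetic change is given for either group. Each dose is represented by 3 arrays, numbered 1 to 3, and the labels do not say whether these were grown and irradiated separately. The p-values therefore weigh a difference against the scatter of these arrays, part or all of which may be technical.

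Values are the deposited log2 intensities, in which a difference of 1 is a doubling. They are relative to the bulk of transcripts on each array, whose median lay between 5.64 and 5.72 on the 6 arrays, and all 35 members lay above the array median on every array. Of 9 plasma cell markers measured, 8 lay above the array median on every array, SLAMF7 being the exception. Of 10 measured markers of other cells, 7 did not, among them the T cell markers CD3E and CD2 and the monocyte markers CD14 and LYZ, whereas the epithelial markers EPCAM and KRT18 and the collagen gene COL1A1 did. The mean level of the plasma cell list ran from 10.44 to 10.46 without and from 10.40 to 10.45 with irradiation, and that of the other list from 5.92 to 6.04 and from 6.07 to 6.15. Single markers moved within both lists: CD38 (-0.42) and XBP1 (-0.23) fell and SLAMF7 (0.55) rose among plasma cell markers, and PECAM1 (0.70) and COL1A1 (0.23) rose and EPCAM (-0.39) fell in the other list (log2 differences, limma adjusted p under 0.05). Their part in the results was not tested. In bulk RNA of this kind, fewer cells of a type and less RNA per cell cannot be told apart.

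Cytosolic synthetases serve the ribosomes that translate nuclear genes, and several of them are held in a large multisynthetase complex. A separate set, also encoded in the nucleus, is imported into mitochondria for the few proteins translated there. When charged tRNA runs short, uncharged tRNA activates the kinase GCN2, which raises translation of the transcription factor ATF4. ATF4 is known to bind C/EBP-ATF response elements in genes of amino acid supply, cytosolic synthetase genes among them. Plasma cells and myeloma cells secrete large amounts of immunoglobulin and depend on a high rate of tRNA charging.

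Irradiated cells held less mRNA of a subset of the cytosolic synthetases, led by those for cysteine, glycine, methionine and serine. Fewer mitochondrial synthetases fell, led by TARS2 at -0.44, and most members of both compartments did not pass the test. Of 19 cytosolic members, 7 fell, 2 rose and 10 did not pass (limma, Benjamini-Hochberg adjusted p under 0.05). Of 16 mitochondrial members, 2 fell, 0 rose and 14 did not pass. Among all 18417 genes the same test called 14.5%, of which 8.18% of all genes were lower and 6.35% higher. Against this background, 36.8% of cytosolic members fell and 10.5% rose, and 12.5% of mitochondrial members fell. The background includes dim genes, whereas all 35 members lay above the array median, so the shares are not matched for brightness. When the dimmest 33.3% of genes were left out, 1778 of the remaining genes fell and 1400 rose, against 1507 and 1169 of all genes. In that fit 10 cytosolic and 3 mitochondrial members fell and 2 cytosolic members rose. The median log2 difference was -0.24 over the cytosolic members, -0.08 over the mitochondrial members and 0.04 over all genes. Irradiated and unirradiated arrays did not overlap for 14 cytosolic and 6 mitochondrial members, and for 34.7% of all genes. The difference between the compartments was not tested as a whole. The counts depend on single arrays: without unirradiated replicate 2, 4 cytosolic members fell, and without unirradiated replicate 1, 0 cytosolic members rose.

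**Figure D1:**
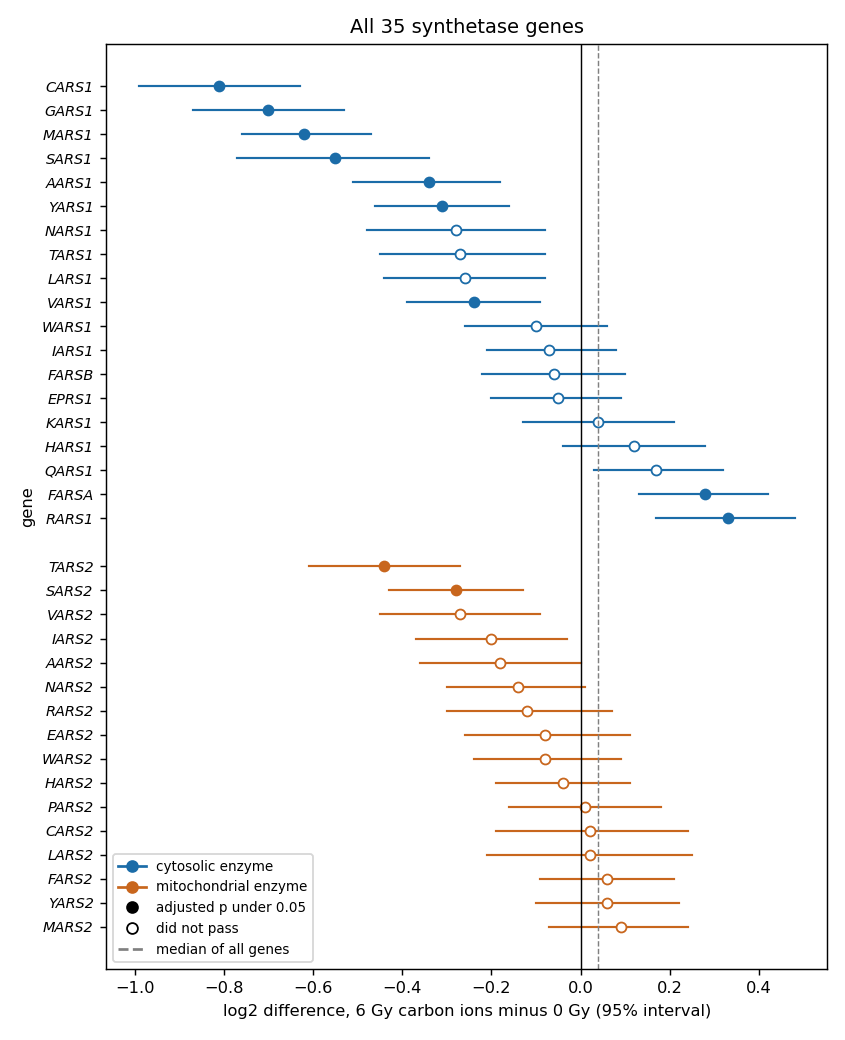
Log2 difference between irradiated and unirradiated arrays for each synthetase gene, with its 95% interval from limma (3 arrays a dose). Filled points passed at an adjusted p under 0.05; the cytosolic genes spread from -0.81 to 0.33, the mitochondrial genes from -0.44 to 0.09, and the dashed line marks the median of all genes at 0.04.

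CARS1, which charges tRNA with cysteine, showed the largest difference among the 35 members. Its log2 value was 7.84, 7.88 and 7.70 on unirradiated arrays 1 to 3 and 6.88, 7.08 and 7.03 on irradiated arrays 1 to 3. Every irradiated array lay below every unirradiated one, by more than the spread within either dose. The log2 difference was -0.81 ± 0.08 (SE), or 1.75-fold lower, with a limma adjusted p of 2.45e-04.

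GARS1 charges glycine and makes both the cytosolic and the mitochondrial enzyme from the same gene. It read 11.17, 11.36 and 11.27 without irradiation and 10.52, 10.54 and 10.65 after it. The groups stood apart, and GARS1 fell by 0.70 on the log2 scale (SE 0.08), or 1.62-fold, with a limma adjusted p of 3.73e-04. MARS1, which supplies methionine to initiator tRNA as well as to the elongating ribosome, read 10.96, 11.01 and 10.95 on unirradiated and 10.32, 10.34 and 10.40 on irradiated arrays. Its arrays lay close together within each dose, and it fell by 0.62 (SE 0.06), or 1.53-fold, with a limma adjusted p of 3.47e-04. SARS1, whose enzyme also charges the tRNA on which selenocysteine is made, read 9.20, 9.27 and 9.11 on unirradiated and 8.58, 8.49 and 8.84 on irradiated arrays. Irradiated replicate 3 lay nearest to the unirradiated arrays, without reaching them, and the log2 difference of SARS1 was -0.55 ± 0.10 (SE), or 1.47-fold lower (limma adjusted p 0.00469). These 4 genes passed with any 1 array left out.

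The other 3 cytosolic genes that fell did so by less. AARS1, whose enzyme for alanine also edits mischarged tRNA, read 11.30, 11.43 and 11.28 on unirradiated and 10.93, 10.98 and 11.07 on irradiated arrays, a difference of -0.34 ± 0.07 (SE; limma adjusted p 0.0134). YARS1, for tyrosine, read 10.21, 10.33 and 10.31 against 9.95, 9.99 and 9.98, a difference of -0.31 ± 0.07 (SE; limma adjusted p 0.0133). Neither gene's groups overlapped, but both calls ended without unirradiated replicate 2, with limma adjusted p of 0.0586 for AARS1 and 0.0581 for YARS1. VARS1, for valine, read 11.14, 11.15 and 11.07 against 10.86, 10.95 and 10.83. Its difference of -0.24 ± 0.07 (SE) passed by a small margin (limma adjusted p 0.0438), and the call ended with any 1 of the 6 arrays left out (0.0508 to 0.137). VARS1 has 2 probe sets, and they hold the same values on every array.

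**Figure D2:**
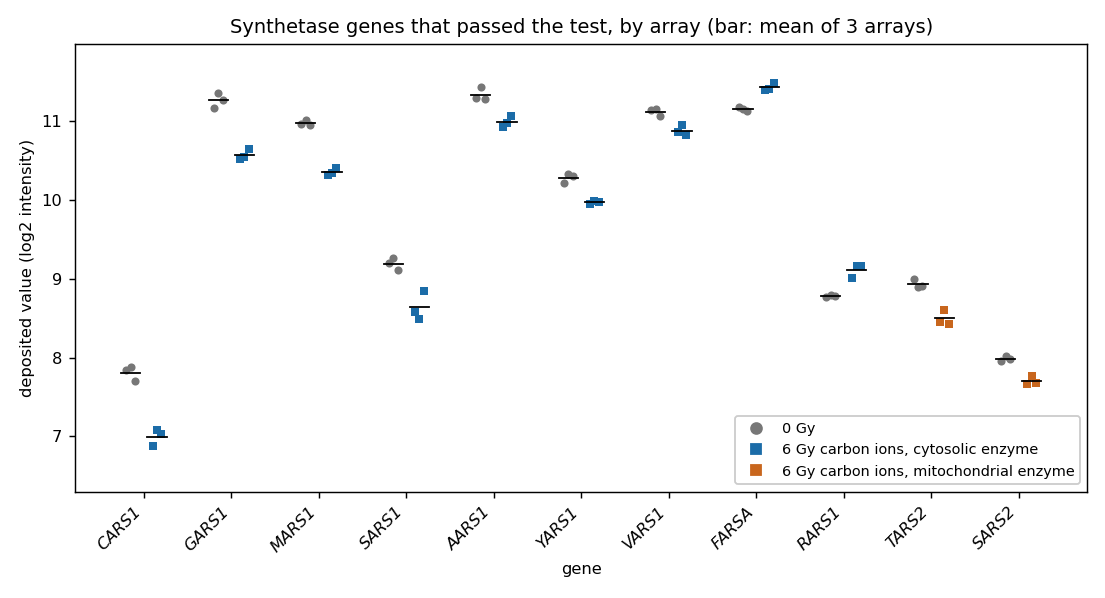
Deposited log2 intensity of the 11 synthetase genes that passed the test, by array: grey circles are the 3 unirradiated arrays, coloured squares the 3 irradiated arrays and bars the group means. In each gene the groups do not overlap; FARSA and RARS1 are higher after irradiation and the other 9 lower. Heights of different genes are not comparable, since each has its own probes.

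A pair of cytosolic genes moved the other way. RARS1, for arginine, read 8.77, 8.80 and 8.78 on unirradiated and 9.01, 9.16 and 9.16 on irradiated arrays. All irradiated arrays were higher, and RARS1 rose by 0.33 (SE 0.07), or 1.25-fold, with a limma adjusted p of 0.0135; the call ended without unirradiated replicate 1 (0.0518). FARSA, the catalytic subunit of the phenylalanine enzyme, read 11.18, 11.15 and 11.13 on unirradiated and 11.40, 11.41 and 11.48 on irradiated arrays. It rose by 0.28 (SE 0.06), or 1.21-fold, with a limma adjusted p of 0.0193, and the call ended with any 1 unirradiated array left out (0.0542 to 0.0667). FARSB encodes the other subunit of the same enzyme and read 11.84, 11.87 and 12.00 on unirradiated and 11.81, 11.89 and 11.83 on irradiated arrays, which overlap. Its difference was -0.06 ± 0.07 (SE; limma adjusted p 0.631). The ratio of FARSA to FARSB within an array was 0.34 higher on the log2 scale after irradiation; this comparison was chosen after the values were seen, and its exact two-sided permutation p of 0.1 is the smallest that 3 arrays against 3 can give.

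Of the 10 cytosolic members that did not pass, 3 lay just outside the threshold on the lower side: LARS1 (leucine; -0.26 ± 0.08), TARS1 (threonine; -0.27 ± 0.08) and NARS1 (asparagine; -0.28 ± 0.09, all SE). Their groups did not overlap, and their limma adjusted p were 0.0579, 0.0596 and 0.0642. LARS1 read 9.38, 9.50 and 9.39 against 9.08, 9.10 and 9.31, and TARS1 9.44, 9.49 and 9.34 against 9.03, 9.15 and 9.29, with irradiated replicate 3 nearest to the unirradiated arrays in both. NARS1 read 10.55, 10.67 and 10.33 against 10.23, 10.20 and 10.28, with unirradiated replicate 3 the lowest of its group. Without that array NARS1 passed (-0.375, limma adjusted p 0.0219), as did LARS1 (-0.335, 0.0215) and TARS1 (-0.332, 0.0303) without irradiated replicate 3. Each of these genes passed in 5 of 13 refits, but in only 1 of the 6 fits with an array left out. In the other fits with an array left out the limma adjusted p reached 0.206 in NARS1, 0.18 in LARS1 and 0.18 in TARS1.

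The remaining 7 ranged from -0.10 to 0.17. WARS1, the tryptophan enzyme that interferon is known to induce, differed by -0.10 ± 0.07 (SE), and EPRS1, a fused enzyme for glutamate and proline, by -0.05 ± 0.06. IARS1 (isoleucine) read 10.82, 10.82 and 10.79 against 10.70, 10.78 and 10.76, groups that did not overlap but lay only 0.07 apart on average (SE 0.06; limma adjusted p 0.533). KARS1, the lysine enzyme that also serves both compartments from 1 gene, read 10.72, 10.79 and 10.66 against 10.67, 10.77 and 10.85, a difference of 0.04 ± 0.07 (SE). HARS1 (histidine) read 9.87, 9.80 and 9.73 against 9.91, 9.86 and 9.98, a difference of 0.12 ± 0.07 (SE), with overlapping groups in both genes. QARS1 (glutamine) came nearest to passing on the higher side: it read 11.08, 11.06 and 11.06 against 11.26, 11.20 and 11.27, a difference of 0.17 ± 0.06 (SE; limma adjusted p 0.0994). The 95% interval of EPRS1 ran from -0.20 to 0.09 and that of KARS1 from -0.13 to 0.21, so neither interval holds a decrease as large as that of CARS1, GARS1 or MARS1.

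Grouped by structure, the multisynthetase complex and the free enzymes gave different counts. Of the 7 members held in the complex (EPRS1, IARS1, KARS1, LARS1, MARS1, QARS1 and RARS1), 1 fell and 1 rose, with a median of -0.05. Of the 12 cytosolic members outside it, 6 fell and 1 rose, with a median of -0.27. Among all genes 8.18% fell and 6.35% rose, and with 7 members the count in the complex is near that background. Whether these counts differ was not tested. Grouping by the 2 unrelated catalytic folds gave closer counts: 4 of 10 class I members fell and 1 rose (median -0.17), against 3 of 9 and 1 in class II (median -0.27), with the fused EPRS1 counted in class I. RARS1 and QARS1 are known to bind each other and the scaffold AIMP1 within the complex. AIMP1 read 7.62, 7.62 and 7.66 on unirradiated and 7.83, 7.95 and 7.88 on irradiated arrays, so that its groups did not overlap. It rose by 0.26 (SE 0.07; limma adjusted p 0.0300), and the call ended with any 1 array left out other than irradiated replicate 1, with adjusted p up to 0.0983.

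The cytosolic members were also grouped by promoter sequence. RefSeq windows on GRCh38.p14, each from 250 bases before to 50 bases after a start site, were searched on both strands for TGATGNAA, the core of the C/EBP-ATF response element. Windows were held for 16 of 19 cytosolic and 14 of 16 mitochondrial members; LARS1, VARS1, YARS1, AARS2 and VARS2 had none. The core was found in 7 of the 16 cytosolic genes (43.8%), in 1 of the 14 mitochondrial genes (7.14%), in 3.59% of 14239 genes on the array and in 4.46% of all 27305 genes of the table. In 6 of the 7 it read TGATGCAA, a form found in 0.969% of genes on the array and chosen for counting after the matches were seen. The matches are shown 5′ to 3′ on the strand of the gene, with the core or its reverse complement in capitals, because the members that carry it include 4 of the 7 cytosolic genes that fell:
CARS1: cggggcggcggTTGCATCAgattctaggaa
GARS1: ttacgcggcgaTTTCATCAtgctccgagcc
MARS1: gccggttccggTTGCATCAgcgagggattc
AARS1: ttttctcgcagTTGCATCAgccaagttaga
NARS1: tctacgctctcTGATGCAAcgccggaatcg
TARS1: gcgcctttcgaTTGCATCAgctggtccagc
IARS1: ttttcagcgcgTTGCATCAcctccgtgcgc

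These stretches lie at chr11:3057407-3057436 on the minus strand (CARS1), chr7:30594834-30594863 on the plus strand (GARS1), chr12:57488053-57488082 on the plus strand (MARS1), chr16:70289675-70289704 on the minus strand (AARS1), chr18:57621804-57621833 on the minus strand (NARS1), chr5:33440956-33440985 on the plus strand (TARS1) and chr9:92293692-92293721 on the minus strand (IARS1). Except in AARS1, where it begins 187 bases before the start site, the match lies close to the start. It begins 33 bases before it in GARS1, 13 in IARS1, 4 in MARS1 and 2 in CARS1, at the 3rd transcribed base in TARS1 and at the 15th in NARS1. CARS1, GARS1 and TARS1 each have 2 windows, and the window at the other start site lacks the core.

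The 7 cytosolic genes with the core had log2 differences from -0.81 to -0.07, all below 0, with a median of -0.34; CARS1, GARS1, MARS1 and AARS1 fell, and NARS1, TARS1 and IARS1 did not pass. The 9 without it in these windows ranged from -0.55 to 0.33 with a median of 0.04; SARS1 fell, and FARSA and RARS1 rose. The ranges of the groups overlap, SARS1 lying below 4 of the 7 genes with the core, and the difference between the groups was not tested. Of the 3 with no window, YARS1 and VARS1 fell. The only mitochondrial member with a match was YARS2, in the form TGATGGAA, whose difference was 0.06 ± 0.07 (SE). Among all genes on the array that fell, 3.64% held the core, near the share over all genes on the array. ATF4 itself lay at 11.24 ± 0.08 (mean ± SD, n = 3) without and 10.10 ± 0.12 with irradiation. A match is a description of these windows and does not show that a factor binds there.

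**Figure D3:**
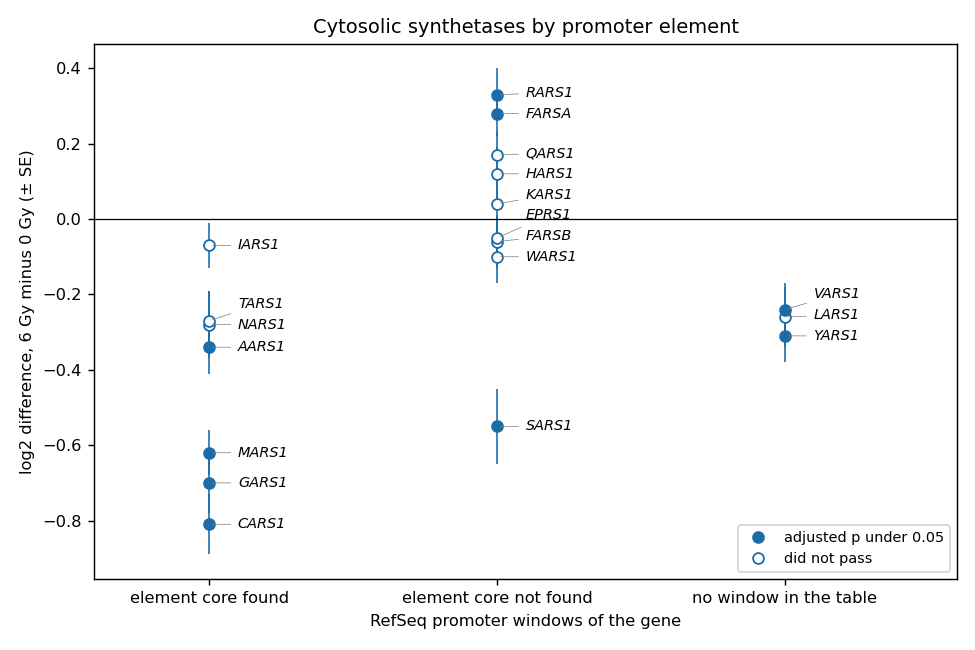
Log2 difference of the 19 cytosolic synthetase genes (± SE, 3 arrays a dose), by whether the response element core was found in their RefSeq promoter windows. The 7 genes with the core lie between -0.81 and -0.07, the 9 without it between -0.55 and 0.33, and filled points passed the test.

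Among the mitochondrial enzymes, TARS2 (threonine) showed the largest difference. It read 9.0, 8.89 and 8.91 on unirradiated and 8.45, 8.61 and 8.43 on irradiated arrays. The groups stood clearly apart, and TARS2 fell by 0.44 (SE 0.08), or 1.36-fold, with a limma adjusted p of 0.00454 and with any 1 array left out. SARS2 (serine) read 7.96, 8.02 and 7.98 against 7.67, 7.77 and 7.68. It fell by 0.28 (SE 0.07), or 1.22-fold (limma adjusted p 0.0206), and the call ended with any 1 unirradiated array or irradiated replicate 1 left out (0.0535 to 0.0805), which left TARS2 as the only mitochondrial member that fell.

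VARS2 (valine) lay at the threshold, with 7.33, 7.33 and 7.31 against 7.06, 7.19 and 6.92 and a difference of -0.27 ± 0.08 (SE; limma adjusted p 0.0501). The irradiated arrays spread more widely than the unirradiated ones, and without irradiated replicate 2, the highest of them, VARS2 passed (0.0271). With any other array left out VARS2 did not pass (limma adjusted p up to 0.132). With the mean of its 2 probe sets the adjusted p was 0.048. IARS2 (isoleucine) read 9.90, 9.92 and 9.75 against 9.55, 9.70 and 9.72, and AARS2 (alanine) 6.44, 6.48 and 6.52 against 6.42, 6.16 and 6.31. Neither gene's groups overlapped, yet neither passed, with differences of -0.20 ± 0.08 and -0.18 ± 0.08 (SE; limma adjusted p 0.116 and 0.157). NARS2 (asparagine) differed by -0.14 ± 0.07 (SE) without overlap of its groups. RARS2 (arginine) read 7.01, 6.84 and 6.79 against 6.75, 6.86 and 6.69, which overlap, a difference of -0.12 ± 0.08 (SE).

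The other 9 mitochondrial members ranged from -0.08 to 0.09, and the groups of each overlapped. WARS2 (tryptophan) and EARS2, which charges glutamate onto both the glutamate and the glutamine tRNA of mitochondria, each differed by -0.08, and HARS2 (histidine) by -0.04. PARS2 (proline), CARS2 (cysteine), LARS2 (leucine), FARS2 (phenylalanine), YARS2 (tyrosine) and MARS2 (methionine) lay between 0.01 and 0.09. CARS2 and LARS2 were the least precise of the 35, along with SARS1, each with an SE of 0.10. CARS2 read 8.75, 8.61 and 8.37 against 8.53, 8.61 and 8.66, with the wider spread on the unirradiated arrays. LARS2 read 7.67, 7.33 and 7.36 against 7.48, 7.35 and 7.60, and PARS2 8.35, 8.32 and 8.49 against 8.36, 8.32 and 8.49.

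The mitochondrial genes for methionine, phenylalanine and tyrosine, whose cytosolic counterparts MARS1, FARSA and YARS1 passed, gave small positive differences. MARS2 read 8.37, 8.34 and 8.22 against 8.35, 8.40 and 8.45, and FARS2 8.55, 8.58 and 8.56 against 8.69, 8.57 and 8.61. YARS2 read 6.96, 6.91 and 6.90 against 6.88, 7.06 and 7.01. In each, 2 of the 3 irradiated arrays lay above every unirradiated array and the other did not. None of the 3 genes passed the limma test, and of their counterparts MARS1 and YARS1 fell and FARSA rose. Among the other mitochondrial genes whose cytosolic counterpart passed, most lay below 0: SARS2 (-0.28), VARS2 (-0.27), AARS2 (-0.18) and RARS2 (-0.12), with CARS2 at 0.02.

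GARS1, KARS1 and QARS1 have no separate mitochondrial gene among the members and were not paired. Setting each of the other cytosolic genes against the mitochondrial gene for the same amino acid gave 17 comparisons. In these FARSA and FARSB share FARS2, and EPRS1 is set against EARS2 and PARS2. The log2 ratio of the genes within each array was compared between doses by an exact two-sided permutation test. In 5 of the 17 the ratio reached the smallest p that 3 arrays against 3 allow, 0.1, which is 0.34 after Benjamini-Hochberg adjustment over the 17, so no pair could pass. Reaching this p means that the ratio did not overlap between doses. The level did not overlap in 34.7% of all single genes. That share is for levels, and none was computed for ratios of 2 genes. The count of 5 pairs is therefore not read as an excess. In 3 of these the cytosolic gene was lower relative to its partner: CARS1 to CARS2 by -0.83 on the log2 scale, MARS1 to MARS2 by -0.70 and YARS1 to YARS2 by -0.37. In the other 2 it was higher: RARS1 to RARS2 by 0.44 and FARSA to FARS2 by 0.22. Leaving out an array can only keep or raise the number of pairs without overlap, so it cannot test how stable that number is. Without unirradiated replicate 3 the ratio did not overlap between doses in 10 of the 17.

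For serine, both genes fell, SARS1 by 0.55 and SARS2 by 0.28, and their ratio shifted by -0.27 (exact permutation p 0.2). For valine the differences were nearly equal, -0.24 in VARS1 and -0.27 in VARS2, and for alanine they were -0.34 in AARS1 and -0.18 in AARS2. For threonine the mitochondrial gene had the larger difference, -0.44 in TARS2 against -0.27 in TARS1, with a shift of the ratio of 0.17 (exact permutation p 0.3). HARS1 and HARS2 lie head to head on chromosome 5 with start sites 85 bases apart in RefSeq, and differed by 0.12 and -0.04.

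**Figure D4:**
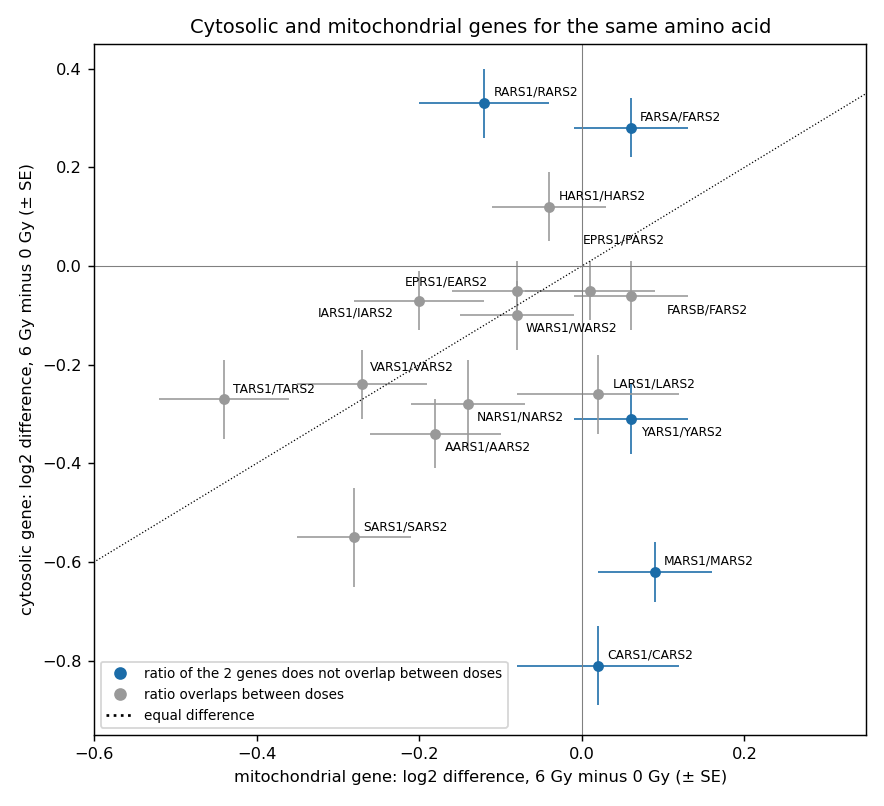
Log2 difference after irradiation of each paired cytosolic gene (vertical axis) against that of the mitochondrial gene for the same amino acid (horizontal axis), ± SE from 3 arrays a dose. Blue points are the 5 comparisons whose ratio did not overlap between doses; CARS1, MARS1 and YARS1 lie below the line of equal difference and RARS1 and FARSA above it.

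Of 24 further genes of tRNA charging, listed by role, 21 had a probe set of their own, and AIMP2, EEF1E1 and AARSD1 were not analysed here. Of the 21, 3 fell, 1 rose and 17 did not pass, with a median of -0.02; 14.5% of all genes were called, so the partners' 4 of 21 is near the background. EIF2AK4, which encodes GCN2, the kinase that senses uncharged tRNA, read 8.78, 8.91 and 8.70 on unirradiated and 8.29, 8.31 and 8.26 on irradiated arrays. It fell by 0.51 (SE 0.07), or 1.42-fold, with a limma adjusted p of 0.00191, and passed with any 1 array left out. Its activator GCN1 differed by 0.05 and its inhibitor IMPACT by -0.11.

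XPOT, which exports tRNA from the nucleus, read 10.05, 10.45 and 10.33 against 9.97, 9.91 and 9.75 and fell by 0.40 (SE 0.11; limma adjusted p 0.0346). SEPSECS, which completes selenocysteine on its tRNA after SARS1 has charged it with serine, read 6.67, 6.81 and 6.39 against 6.10, 6.31 and 6.31 and fell by 0.38 (SE 0.11; limma adjusted p 0.0442). Unirradiated arrays varied widely in both. The XPOT call held only when replicate 1 of either dose was the array left out (otherwise up to 0.122), and the SEPSECS call ended with any array left out other than unirradiated replicate 3 (up to 0.148). The elongation factor genes that carry charged tRNA to the ribosome did not pass: EEF1A1, EEF1B2, EEF1D and EEF1G in the cytosol ranged from -0.02 to 0.09, and TUFM, TSFM and GFM1 in mitochondria from -0.09 to 0.19. The 4 genes that amidate or formylate charged mitochondrial tRNA (GATB, GATC, QRSL1 and MTFMT) ranged from -0.09 to 0.08, and the proofreading genes DTD1 and DTD2 differed by 0.05 and 0.03. PSTK, the kinase that acts between SARS1 and SEPSECS, differed by -0.11, and TRNT1, which adds the CCA end to tRNA, by -0.10.

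**Figure D5:**
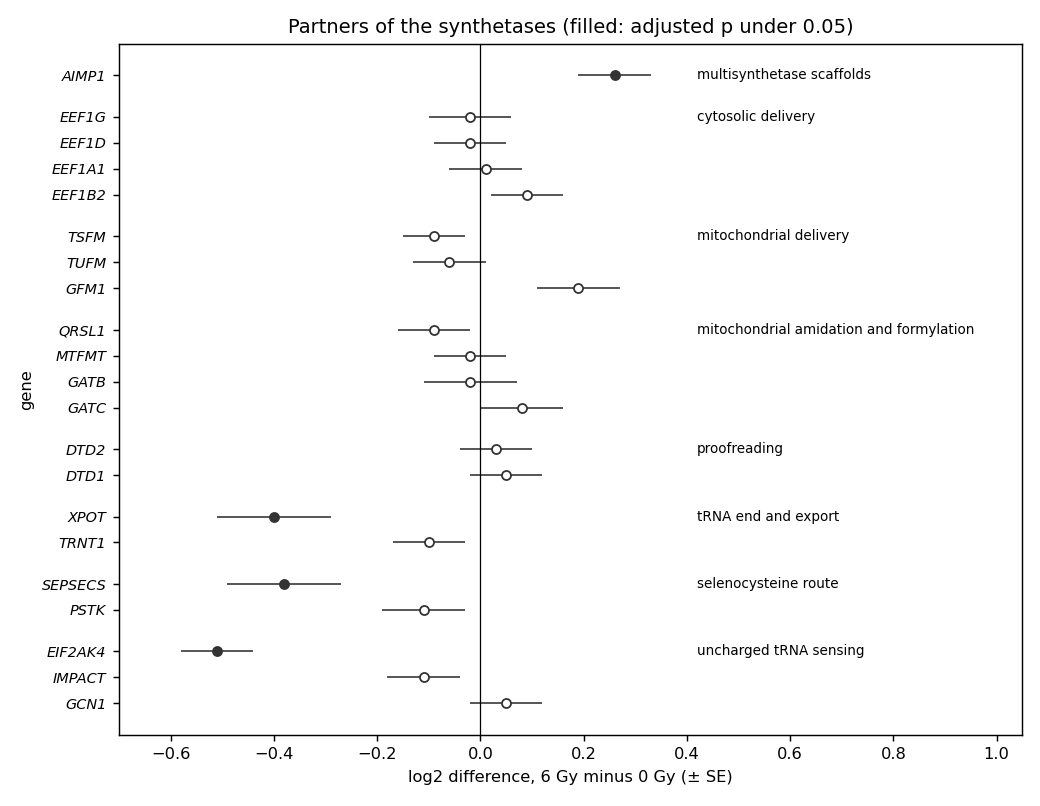
Log2 difference (± SE, 3 arrays a dose) of the 21 measured partners of the synthetases, grouped by role. EIF2AK4, XPOT and SEPSECS are lower and AIMP1 is higher after irradiation (filled points, adjusted p under 0.05), and the factors that deliver charged tRNA lie between -0.09 and 0.19.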

How the data were processed

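The deposited series table of 33297 probe sets was read as log2 intensities; the base is inferred from the range of the authors' values, and how they were normalized is not given in the sources used here. Such values do not show a change common to all transcripts, and there are no detection calls. Per the labels' protocols, RNA was Trizol-extracted and biotin-labelled. By the platform annotation, 19460 probe sets list 1 symbol, 1754 list several and 12083 list none. With the brightest probe set a gene, 18417 genes were tested at once with limma 3.58.1 (lmFit and eBayes, two-sided, no covariate) in R 4.3.3, and p-values were adjusted over all of them; "rose" and "fell" mean an adjusted p under 0.05. Standard errors are limma's. This fit was first tested on simulated data. That test required recovery only of planted changes larger than any seen in the members, so it cannot show how well changes of their size are found. Same-numbered arrays did not deviate together (correlations -0.042, 0.103 and -0.111), so the numbers were not used as pairs. Promoter windows are RefSeq's. Members, lists and tests were chosen with earlier results of these data known. Named with every array's value were the 8 cytosolic and 5 mitochondrial members with the smallest p, the members paired with them by amino acid, called mitochondrial members, members opposing most of their compartment, called partners and measured scaffolds of the complex; other array values were added after they were seen. Leaving out each array was among the alternatives tried. Tables and figures used Python 3.11.15, pandas 2.3.3 and matplotlib 3.10.9.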

Additional observations from a re-analysis of the deposited data

How the results depend on the processing

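In 14 alternatives the fit was given a replicate block (the sample number), lost each array in turn or the dimmest 33.3% of genes, was scaled by quantiles or by array medians, used a trended and robust prior or weighted arrays, averaged probe sets, or was read at an adjusted p under 0.01. CARS1, GARS1, MARS1, SARS1, TARS2 and EIF2AK4 passed in every refit at 0.05. The cytosolic median stayed between -0.266 and -0.204; the mitochondrial median ran from -0.118 to -0.0447 with an array left out and was -0.0246 after quantile normalization. With the replicate block, 1 cytosolic gene rose, 1 partner fell, 0 partners rose, and 765 genes of all tested rose (1169 without it). At an adjusted p under 0.01, 4 cytosolic genes fell and 0 rose, 1 mitochondrial gene and 1 partner fell, 0 partners rose, and 693 of all genes fell and 384 rose. Without the dimmest genes, with array medians subtracted, with the trended and robust prior or with array weights, 10 cytosolic and 3 mitochondrial genes fell. LARS1, NARS1, TARS1 and VARS2 passed in each of these fits, in which up to 1818 of all genes fell, against 1507 in the main fit. Over all alternatives 4 to 10 cytosolic genes fell and 0 to 3 rose. With an array left out, 4 to 8 cytosolic genes fell and 0 to 2 rose, 1 to 3 mitochondrial genes fell, and 1 to 2 partners fell and 0 to 1 rose. In the same fits 852 to 1324 of all genes fell and 619 to 887 rose. The ratio did not overlap in 5 to 10 pairs, a count that leaving out an array can only keep or raise. Differences near 0 changed sign with an array left out in PARS2 (-0.041 to 0.0595), LARS2 (-0.0415 to 0.13), CARS2 (-0.0793 to 0.112) and KARS1 (-0.00327 to 0.0872), and with array weights in CARS2 (-0.0216) and LARS2 (-0.0156). Causes were not tested. The limma fit with 3 arrays a dose gave a median SE of 0.07 over the members, which limits calls on small changes.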
